A study of Mus musculus with 6 samples.

Results

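The transcripts of 34 genes, Myc, its truncated relative Bmyc and 32 genes that act in or beside ribosome biogenesis, were followed through single CD4+ T cells from mouse Peyer's patches. The members were chosen by gene symbol from the 32285 genes of the matrices, and all 34 were found once and detected in all 4 libraries. The T cells came from OTII+/+RAG-/- donors, whose T cell receptor recognises an ovalbumin peptide, and were either WT or TgfbrIWT/mut, that is heterozygous for the M318R knock-in of the type I TGF-beta receptor. Each genotype gave 2 libraries, called WT 1, WT 2, mutant 1 and mutant 2. In every group the hosts were CD45.1 WT mice that drank 1.5% ovalbumin for 7 days, and donor cells were sorted from the patches on day 8, so that the host tissue carried no mutation. The age of the donors is not given in the sources used here.

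Ribosome biogenesis starts in the nucleolus, where RNA polymerase I transcribes the long ribosomal RNA precursor. Small nucleolar ribonucleoproteins modify that precursor, and assembly factors cut, fold and export the small and large subunits. Myc is a transcription factor induced by T cell receptor stimulation, and genes of this machinery are among its best known targets in growing lymphocytes. Tnfrsf9 encodes the costimulatory receptor 4-1BB, and Nr4a1 encodes the nuclear receptor Nur77. Both transcripts are commonly used as marks of recent receptor stimulation.

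After filtering, 2970 T cells were kept. WT 1 gave 1277 of them, WT 2 gave 631, mutant 1 gave 882 and mutant 2 gave 180. They held 12053787, 5724539, 7856304 and 1703555 UMIs (unique molecular identifiers, each standing for 1 captured transcript). Median UMIs per cell were between 8638 and 9089.5. A Cd3 transcript was found in 99.7% to 100% of the kept cells, Cd8a was at 0.764 counts for every 1000000 UMIs (CPM) or less and Cd79a at 1.16 CPM or less. The whole matrices shared 23 cell barcodes between libraries, 7 of them among kept cells. Only the WT matrices carried hashtag antibody counts, so genotype and hashtag handling cannot be told apart. The sources used here do not say that libraries came from different animals. P-values by genotype measure the spread between libraries, which may be technical. Tests between classes of cells took library as a block. Their p-values measure how the class difference varied between libraries, which may be technical as well.

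The 34 members together took 0.380%, 0.364%, 0.353% and 0.310% of all UMIs in WT 1, WT 2, mutant 1 and mutant 2, or 3795, 3637, 3534 and 3101 CPM. That was 29.3 to 35.8 UMIs per cell, lowest in mutant 2. The transcripts were unevenly shared out: Npm1, encoding the nucleolar chaperone nucleophosmin, and Ncl, encoding nucleolin, made up 42.2% to 44.5% of the members' UMIs. Because 1 UMI stands for 1 3′ end, these levels do not depend on transcript length. Single members over all kept T cells are given as TMM-scaled CPM, that is CPM scaled by edgeR's factor for each library. The 5 highest members were led by Npm1 at a mean of 946 TMM-scaled CPM and Ncl at 592. Nop10 of the box H/ACA particle stood at 350, the RNA helicase gene Ddx21 at 234 and the ribosomal RNA methyltransferase gene Fbl at 125. The lowest was Polr1b, encoding a large subunit of RNA polymerase I, at 4.30 TMM-scaled CPM. Myc itself was sparse, between 11.2 TMM-scaled CPM in WT 2 and 22.4 in WT 1, and 7.78% of the kept cells held a Myc UMI. In the 107 epithelial-like cells left out of the T cells that share was 9.35% at a median of 3918 UMIs per cell, so the share of all T cells with a Myc UMI stood no higher than in these cells, which can express Myc themselves. In cells thinned to 4000 UMIs the shares were 4.11% of T cells and 3.85% of 52 epithelial-like cells.

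Myc lies on chromosome 15 of mm10 at 61985391 to 61990374 on the plus strand, and Bmyc on chromosome 2 at 25706739 to 25707721 on the plus strand. Srm, encoding spermidine synthase, is on chromosome 4 at 148591503 to 148594993 on the plus strand. Mettl1, encoding the catalytic subunit of a tRNA guanosine methyltransferase, is on chromosome 10 at 127041414 to 127046365 on the plus strand. These positions are whole gene spans, exons and introns included, from GENCODE release M21.

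T cell states were clusters of the cells built without the members among the variable genes, named only where markers allowed it. The values by state are therefore a description with no test, over libraries with at least 10 cells in the state. The summed members were highest in cluster 12, proliferating-like cells led by the S phase genes Rrm2, Cdc6 and Hells. There they stood at 7261 CPM in WT 1, 7565 CPM in WT 2 and 6008 CPM in mutant 1. Cluster 4 followed closely, with 6662 CPM in WT 1, 6694 CPM in WT 2 and 6831 CPM in mutant 1, and its libraries lay within the range of cluster 12. Cluster 4 has no cell type name, is led by Trpm1, Eno3, Arhgap20, Sox4 and Tnfrsf9, and holds Srm, Bmyc and Mettl1 among its leading genes. It was not a class of cycling cells by its leading genes, and its median was 9951 UMIs per cell against 18318 UMIs in cluster 12.

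A step below came the Th1 or cytotoxic-like cluster 7, with 3966 to 4102 CPM. The Tfh-like cluster 1 (T follicular helper) spread from 2747 CPM in mutant 2 to 3910 CPM in WT 1, and the second proliferating-like cluster, number 13, reached 4521 CPM in the 1 library that held enough cells. All other states had means between 2521 and 3272 CPM. Among these, neighbours in the order of means overlapped, except that the interferon signature-like cluster 8 (3012 to 3151 CPM) lay above cluster 0 (2789 to 2977 CPM). The low end was formed by the naive or memory-like cluster 5, with 2503 to 2762 CPM, the Tfh-like cluster 2, with 2722 to 3015 CPM, and the shallow cluster 10, with 1990 to 2904 CPM at a median of 3282 UMIs per cell.

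Myc did not follow the sum. Its mean was highest in the receptor-stimulated-like cluster 6, led by Egr3, Nr4a1, Nr4a3 and Egr2, where it reached 68.8 CPM in WT 1, 40.1 CPM in WT 2 and 55.6 CPM in mutant 1. In the same cells the summed members were at 3210, 3077 and 3529 CPM, near the level of the states with little Myc. In cluster 4 Myc stood at 51.3, 29.8 and 42.2 CPM, overlapping cluster 6, and in cluster 12 it ranged from 13.3 to 50.6 CPM. The Tfh-like cluster 2 held 3 Myc UMIs in 427 cells, a mean of 0.68 CPM, while the Tfh-like cluster 1 stood at 9.30 to 18.1 CPM.

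**Figure D1:**
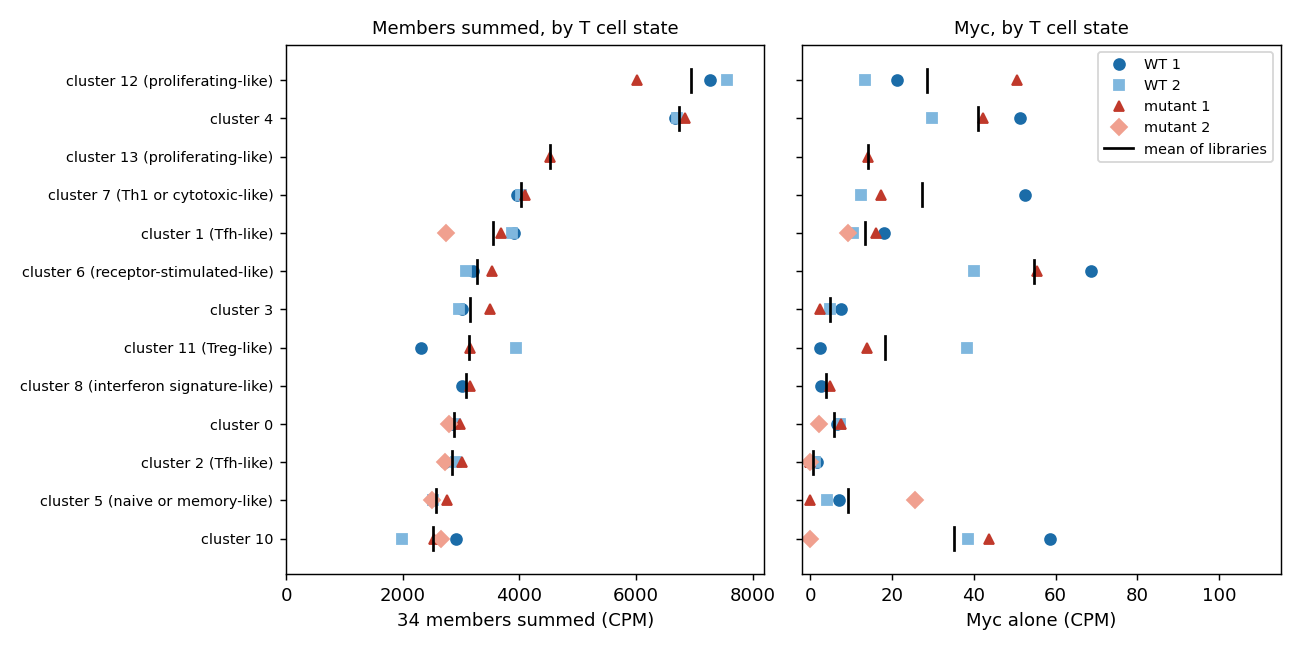
Summed CPM of the 34 members (left) and Myc alone (right) in each T cell state. Points are libraries with at least 10 cells in the state and bars are their means. Clusters 12 and 4 stand above the other states in the sum, at means of 6945 and 6729 CPM, whereas the Myc mean is highest in cluster 6 at 54.8 CPM.

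Single members bore out that split. Of the 34, 19 had their highest state mean in cluster 4, 12 in cluster 12, 2 in cluster 10 and 1, Myc, in cluster 6. In the 3 libraries with enough cells, 34 of 34 members were higher in cluster 4 than in cluster 5 in every library, and 28 were higher in cluster 4 than in cluster 6 in every library, with 1, Myc, lower. Between the 2 highest states 9 members were higher in cluster 4 in every library and 2 in cluster 12. The same counts over all genes are not given, and whether these orders are particular to the members was not tested. Srm had a mean of 88.2 CPM in cluster 4 (77.8 to 105 CPM), 81.9 CPM in cluster 12 and 6.71 CPM in cluster 2. Nhp2, a core protein of the box H/ACA particle that guides pseudouridylation, stood at 176 CPM in cluster 4 and 175 CPM in cluster 12, and at 38.2 CPM in cluster 2. Bmyc stood at 101 CPM in cluster 4 (77.3 to 143 CPM) against 41.5 CPM in cluster 12. Rrp9 (59.5 and 27.4 CPM) and the sparse Rrp12 (17.1 and 7.20 CPM) were likewise lower in cluster 12. Npm1 was highest in cluster 12, at 2173 CPM against 1790 CPM in cluster 4. Outside cluster 10, Nop10 ran from 236 CPM in cluster 5 to 481 CPM in cluster 12. The cluster 10 peaks were those of Ddx21, at 364 CPM, and Gnl3, in cells with few UMIs.

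At a finer resolution of 1.2 the cells of cluster 4 came apart into a pair of clusters that differed in the members. A cluster of 192 cells, 68.2% of them from cluster 4, held the members at 7283 CPM in WT 1, 8341 CPM in WT 2 and 6714 CPM in mutant 1, and Myc at 74.1, 53.9 and 47.8 CPM. The other, of 147 cells with 89.8% from cluster 4, held them at 4032 CPM in WT 1 and 3900 CPM in WT 2, with too few mutant cells. Both had a Tnfrsf9 UMI in most cells, 81.8% and 85.7%. The cluster of 192 cells was led by Nr4a1, Nr4a3 and the members Srm and Myc. Because the finer clusters also held cells from other states, these sums are not those of the cluster 4 cells alone.

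Cells were then gated by at least 1 UMI of Tnfrsf9 or Nr4a1, which are not members, and each class was compared with cells positive for neither in edgeR's quasi-likelihood test over all genes, with library as a block. Of the kept T cells 42.3% were positive for Tnfrsf9 and 20.2% for Nr4a1, against 8.41% and 7.48% in the shallower epithelial-like cells. Of the 9 epithelial-like cells with Tnfrsf9, 7 were among the 16 of WT 1 (43.8%), 2 among the 38 of mutant 1 and none in WT 2 or mutant 2. For WT 1, WT 2, mutant 1 and mutant 2 the share positive for both was 15.7%, 10.5%, 7.94% and 4.44%. Gated cells were also deeper: in WT 1 the median was 7994 UMIs in cells with neither, 8380 with Nr4a1 only, 9680 with Tnfrsf9 only and 9805 with both.

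In cells with neither transcript the members summed to 3090, 3105, 3057 and 3060 CPM in WT 1, WT 2, mutant 1 and mutant 2, all 4 libraries lying close together. With Nr4a1 only they stood at 3327, 3282, 3233 and 3019 CPM. With Tnfrsf9 only they reached 4159, 3869 and 4136 CPM in 3 libraries, and 3065 CPM in mutant 2, close to the 3060 CPM of its cells with neither. With both they stood at 4901, 5400, 4015 and 3881 CPM, above neither in 4 of 4 libraries. Without Npm1 and Ncl the ratio of both to neither was still 0.64, 0.71, 0.38 and 0.43 on the log2 scale. The last class of mutant 2 held only 8 cells.

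**Figure D2:**
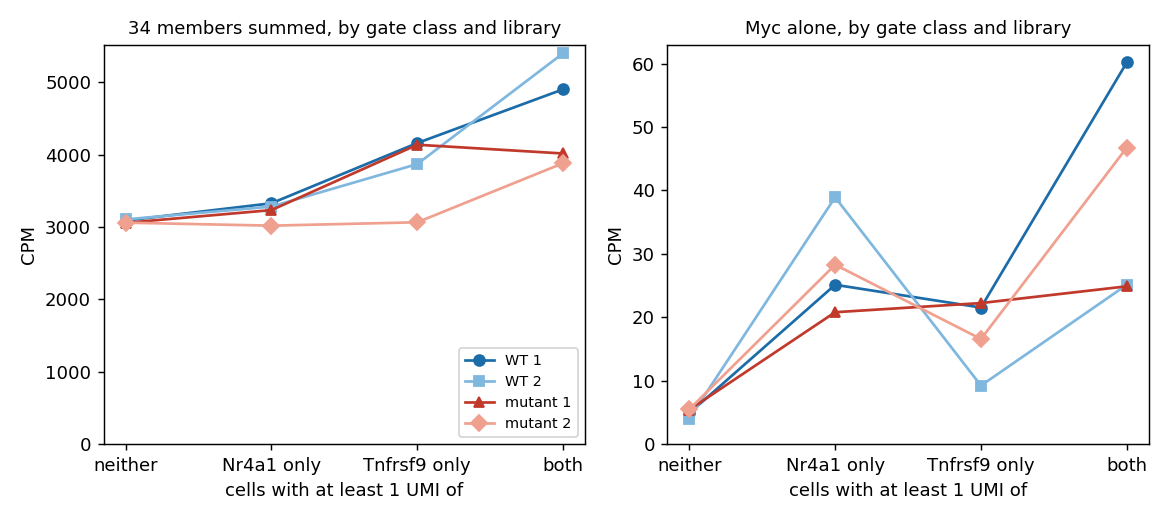
Summed CPM of the 34 members (left) and Myc alone (right) in cells with at least 1 UMI of neither gate gene, Nr4a1 only, Tnfrsf9 only or both. Lines join the classes of 1 library. The sum starts at 3057 to 3105 CPM and is highest with both genes in WT 1, WT 2 and mutant 2, while Myc is already raised in cells with Nr4a1 only.

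Of the 32 members that passed the count filter, 27 rose in cells with both transcripts and none fell, against 9.74% of all 8338 genes tested called higher and 8.19% called lower. Their median log2 fold change was 0.79, and that of all genes was -0.01. With Tnfrsf9 only, 21 of 32 rose and none fell (5.22% of all genes called higher, 3.62% lower), with a median of 0.49. With Nr4a1 only, 1 of 32 rose, which was Myc, and none fell (2.22% of all genes called higher, 1.27% lower), with a median of 0.17. At an unadjusted p under 0.05 in edgeR's test there were 9 members, a cutoff for which no share of all genes is given. For Nr4a1 only, DESeq2 also called 1 member higher, and edgeR called 2 without mutant 1 and 2 without mutant 2. Of all genes 2.87%, 2.50% and 3.02% were called in either direction in these fits. When all cells with Nr4a1, those with Tnfrsf9 included, were set against all cells without it, 15 of 34 rose, with 6.50% of all genes called in either direction. Rrp12 and Polr1b were too sparse to be tested in the 4 classes. The classes of this contrast were small, with 121, 56, 66 and 11 cells positive for Nr4a1 only.

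Myc was the member that separated the classes most. It stood at 4.9, 4.0, 5.5 and 5.3 TMM-scaled CPM in cells with neither, at 25.7, 40.2, 22.1 and 26.8 with Nr4a1 only, at 22.3, 9.4, 22.8 and 16.6 with Tnfrsf9 only, and at 63.3, 26.3, 25.9 and 44.0 with both. Every gated class lay above the cells with neither in every library, but mutant 2 rested on very few cells. There the Nr4a1-only class held 3 Myc UMIs, in 9.09% of its 11 cells. Its class with both held 4 Myc UMIs, in 12.5% of its 8 cells. The log2 fold changes with Nr4a1 only, Tnfrsf9 only and both were 2.49 ± 0.35 (SE), 1.93 ± 0.26 and 3.12 ± 0.27, with edgeR adjusted p of 5.15e-06, 5.66e-06 and 7.81e-11. Cells with a Myc UMI made up 2.45% to 3.15% of cells with neither and 12.5% to 25.4% of cells with both.

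The enzyme genes Srm and Mettl1 came next. Srm gave 15.8, 15.2, 11.2 and 6.4 TMM-scaled CPM in cells with neither, and 41.9, 66.6, 18.7 and 22.0 in cells with both, without overlap. Its log2 fold change was 1.54 ± 0.22 with both and 1.26 ± 0.18 with Tnfrsf9 only, and with Nr4a1 only the estimate was 0.38 ± 0.30 (edgeR adjusted p = 0.637). Mettl1 gave 12.1, 6.9, 12.8 and 8.5 TMM-scaled CPM in cells with neither. With both it reached 40.9, 51.1 and 34.6 in 3 libraries, and none was counted in the 8 cells of mutant 2. Its log2 fold change with both was 1.86 ± 0.25.

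Among the small nucleolar particles, 4 of 4 box C/D genes rose in cells with both transcripts, from 0.74 for Nop56 to 1.17 for Rrp9, a component of the U3 particle. They rose with Tnfrsf9 only as well, by 0.49 to 0.59. Of the 4 box H/ACA genes 3 rose with both, led by Nhp2 at 1.10 ± 0.13. Nhp2 stood at 54.5, 49.9, 49.98 and 35.0 TMM-scaled CPM in cells with neither and at 118, 141, 86.4 and 44.0 with both, so that only mutant 2 with both overlapped the cells with neither. Their partner Nop10 did not pass, at 375, 358, 365 and 282 TMM-scaled CPM with neither and 376, 329, 343 and 319 with both (log2 -0.04 ± 0.08, edgeR adjusted p = 0.789).

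The 3 abundant nucleolar proteins rose as well. Npm1 went from 875, 810, 802 and 785 TMM-scaled CPM in cells with neither to 1480, 1585, 1036 and 858 with both, a log2 fold change of 0.63 ± 0.09. Ncl rose by 0.72 ± 0.10, and Nolc1, which encodes a chaperone of small nucleolar particles, by 1.05 ± 0.14. Ddx21 rose by 0.59 ± 0.09 in cells with both, and its 0.23 ± 0.08 with Tnfrsf9 only narrowly missed the threshold (edgeR adjusted p = 0.0568).

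For the small subunit, 2 of 3 tested members rose with both (Nop14, Wdr43) and none of the 3 with Tnfrsf9 only. Nob1, the nuclease of the last cut of the small subunit RNA, stood at 0.27 ± 0.18 with both (edgeR adjusted p = 0.325). For the large subunit, 9 of 12 rose with both, with Mrto4 at 1.11, Ppan at 1.09 and Rrs1 at 1.03, and 7 of 12 with Tnfrsf9 only. The PeBoW complex, which Pes1, Bop1 and Wdr12 form, was split: Bop1 rose by 0.59 ± 0.20, whereas Pes1 at 0.32 ± 0.16 and Wdr12 at -0.10 ± 0.17 did not pass. Rrp1b did not pass either, at 0.14 ± 0.18.

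**Figure D3:**
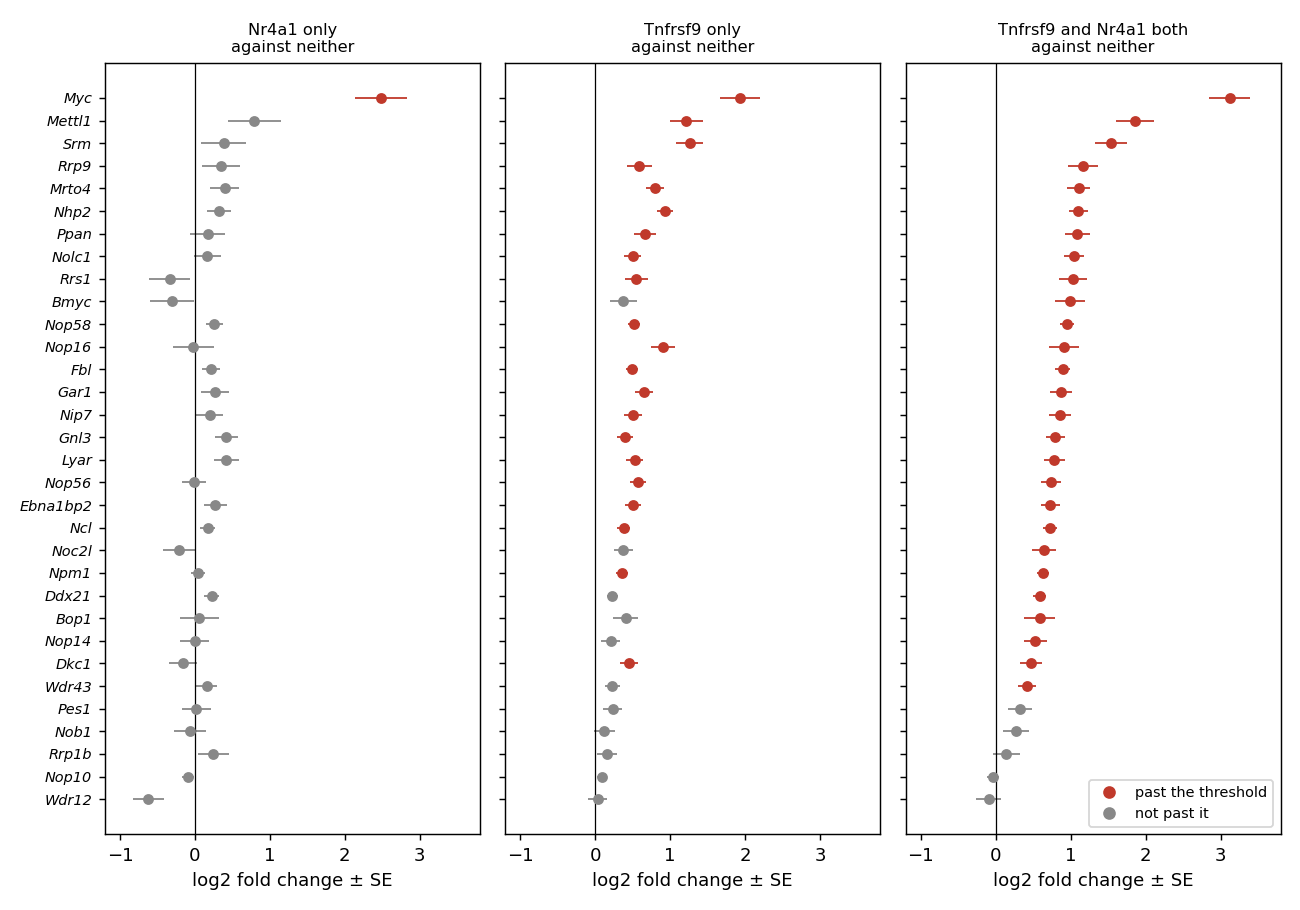
Log2 fold change ± SE of the 32 tested members in each gate class against cells with neither transcript, ordered by the class with both. Red points passed edgeR's adjusted threshold of 0.05 and grey points did not. With Nr4a1 only Myc alone is red, with Tnfrsf9 only 21 members are red, and with both 27 are.

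A direct contrast of Tnfrsf9 only against Nr4a1 only, added after the data were seen, called 6 of 32 members higher and none lower (2.16% of all genes called higher, 3.17% lower), with a median of 0.31. The 6 were Nop16 at 0.92, Rrs1 at 0.88, Dkc1 at 0.62, Nhp2 at 0.61, Nop56 at 0.58 and Npm1 at 0.31. Myc lay the other way, at -0.56 ± 0.29, and did not pass (edgeR adjusted p = 0.295). Without WT 1 no member was called, and 3 were without WT 2 and 2 without mutant 1. Of all genes 2.87%, 3.24% and 2.69% were called in these fits. No member was called after thinning to 4000 UMIs, without G2 and M phase cells or without cluster 4. Calls over all genes were 1.10%, 3.20% and 4.46% there.

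The gate counts leaned on cluster 4, in which 90% of cells were gate positive. Without that cluster, a choice made after seeing the data, 19 of 32 members rose with both (median 0.45) and 11 with Tnfrsf9 only (median 0.31), where 10.1% and 4.87% of all genes were called in either direction. Bmyc, which rose by 0.99 ± 0.20 in cells with both, stood at -0.081 without cluster 4. Its values with both were 101, 63.5, 18.7 and 0 TMM-scaled CPM, against 35.4, 31.5, 24.5 and 26.5 with neither, so only the WT libraries lay above their cells with neither. Without WT 1 the Tnfrsf9-only count was 11, where 2.67% of all genes were called in either direction. In cells thinned to 4000 UMIs, where mutant 2 kept 2 cells with both, 4 of 32 members rose with both (median 0.49) and 18 with Tnfrsf9 only (median 0.53). Calls in either direction over all genes were 4.10% and 3.53% there, against 17.9% and 8.84% without thinning.

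Within single states the difference between gated cells and cells with neither gate gene varied. In cluster 0 the members stood at 2778, 2918, 2869 and 2882 CPM in cells with neither and 2932, 2867, 3148 and 2651 CPM in cells with either gate gene, higher in 2 of 4 libraries. In Tfh-like cells they went from 2853, 3079 and 3203 CPM to 3868, 3887 and 3797 CPM in 3 libraries, and from 2837 to 2570 CPM in mutant 2. In cluster 2 the gated cells were higher in 1 of 3 libraries, with log2 ratios from -0.10 to 0.01. In cluster 4 of WT 1, 20 cells with neither gate gene already held the members at 5730 CPM, against 6750 CPM in its 182 gated cells. The widest gaps came from few cells. In cluster 7 of WT 1 the members stood at 2434 CPM in 19 cells with neither and 4280 CPM in 52 gated cells. In cluster 8 they stood at 2263 CPM in 15 and 4380 CPM in 10 cells of mutant 1, and at 3123 and 2850 CPM in WT 1. These values by state were not tested.

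A gate on Myc itself sorted the other members more fully. The 231 cells with a Myc UMI were compared with the rest of their library, and Myc, being the gate, is no result. The other 33 members summed to 6621, 6522, 5221 and 4727 CPM in cells with a Myc UMI, and to 3358, 3373, 3370 and 2940 CPM in cells without, with no overlap. The ratios were 0.98, 0.95, 0.63 and 0.69 on the log2 scale. Of the 32 other members tested, 29 rose and none fell (9.87% of all genes called higher, 6.05% lower), with a median of 0.98. Bmyc at 0.61 ± 0.23, Nob1 at 0.47 ± 0.17 and Wdr12 at 0.30 ± 0.17 did not pass.

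**Figure D4:**
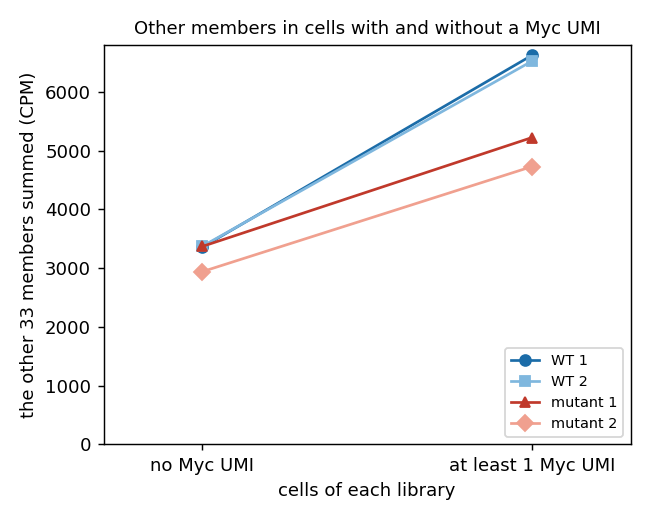
Summed CPM of the 33 members other than Myc in cells without and with a Myc UMI. Lines join the values of 1 library. The cells with a Myc UMI stand at 4727 to 6621 CPM and those without at 2940 to 3373 CPM.

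Of the tested members other than Myc, Srm changed most, from 20.4, 21.5, 17.2 and 8.6 TMM-scaled CPM without a Myc UMI to 75.8, 82.8, 43.3 and 27.1 with one, a log2 fold change of 1.76 ± 0.18. Mettl1 followed at 1.67 ± 0.20, and Nop16, a large subunit factor, at 1.34 ± 0.16, from 25.3, 27.1, 23.2 and 13.5 to 64.8, 58.2, 63.3 and 40.6 TMM-scaled CPM. Nhp2 rose by 1.34 ± 0.12, Mrto4 by 1.33 ± 0.14 and Rrs1 by 1.27 ± 0.18. Nop10, which no Tnfrsf9 or Nr4a1 class moved past the threshold, rose by 0.29 ± 0.07, from 366, 338, 369 and 283 to 477, 390, 426 and 372 TMM-scaled CPM.

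Cells with a Myc UMI had more UMIs in all, with medians of 11548, 10017, 9722 and 13051 against 8707, 8601, 8492 and 8885. In cells thinned to 4000 UMIs 16 members, Myc included, passed, with a median of 0.95, and 2.89% of all genes were called. Genes of S phase moved with this gate, 19 of 21 tested being higher (Cdc6 by 2.90, Rrm2 by 2.43), and their part in the result was not tested. Without the proliferating-like clusters 25 members passed, Myc included, and without cluster 4, 23, with 10.1% and 9.89% of all genes called.

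The rest of the pathway was read from lists of genes that are not members, to be set against the 9.74% of all genes called higher and 8.19% called lower in cells with both. In cells with both Tnfrsf9 and Nr4a1, 19 of 47 other small subunit genes rose and none fell, with Bysl at 1.02, Ltv1 at 0.91 and Heatr1 at 0.89. Of 48 other large subunit genes 20 rose, with Urb1 at 1.08 and Nle1 at 0.88, and 1 fell. Of 27 other RNA polymerase I and III genes 2 rose, Polr1e at 0.89 and Polr1a at 0.73, a share near that of all genes. Of 35 cytosolic ribosomal protein genes 31 rose, by small amounts such as 0.50 for Rps2 and 0.36 for Rpl3. Of 39 known Myc targets outside the nucleolus 32 rose and 2 fell, with Shmt1 of folate metabolism at 1.95 and the CTP synthase gene Ctps at 1.24. These lists were drawn up with earlier results of these data known.

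The Myc network factors pair with Myc or compete with it, and their calls were near the share over all genes. Of 14 tested in cells with both gate genes, 2 rose, Ruvbl1 at 0.77 and Ruvbl2 at 0.55, the paired helicases that Myc recruits. Mxd4, which encodes a Myc antagonist, fell by 0.86. In cells with a Myc UMI the same 3 genes passed in the same directions, at 0.71, 0.91 and -0.69. Of 14 tested mTORC1 and amino acid genes in cells with both, 1 rose (Rheb at 0.39) and 2 fell (Eif4ebp1 at -0.66, Ddit4 at -0.37). S phase genes rose in 1 of 19 there, Pcna at 0.59, against the 19 of 21 in cells with a Myc UMI.

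Promoter sequence was available for 27 of the members in RefSeq windows of GRCm38.p6, from 250 bases before to 50 bases after the transcription start. The windows of Myc, Srm, Npm1, Fbl, Rrs1, Rrp12 and Bop1 were not used here. E-box forms that Myc with its partner Max is known to bind were searched on both strands, CACGTG, which is its own reverse complement, and CACGCG, whose other strand reads CGCGTG. The first form was present in 3 of the 27 members (11.1%) and in 8.09% of the 27025 genes of the table. The second form was present in 10 of the 27 (37.0%) and in 10.5% of all genes. Base composition of the windows was not matched, and a match of letters is not a bound site. The sites below show each form, with its motif in capitals, for members that rose in cells with both gate genes, and for Pes1 and Nop10, which did not pass there. The window of Pes1 holds both forms.

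Mettl1 (chr10:127041950-127041979, plus strand): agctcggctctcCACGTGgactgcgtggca
Wdr43 (chr17:71616220-71616249, plus strand): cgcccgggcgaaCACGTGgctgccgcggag
Pes1 (chr11:3963965-3963994, plus strand): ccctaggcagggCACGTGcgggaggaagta
Nhp2 (chr11:51619764-51619793, plus strand): ggaggcggcggcCGCGTGgttcctctatgc
Nop16 (chr13:54590029-54590058, minus strand): ggagactattaaCACGCGgctctgagagcg
Nolc1 (chr19:46075810-46075839, plus strand): gcaggatgatgaCGCGTGtgggaccggaag
Nop10 (chr2:112261938-112261967, plus strand): aggttgttggcgCACGCGattgaagcggcg

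Members that rose and members that did not pass hold the same letters here. Nop10 and Nhp2 belong to the same particle and each has the second form, and with both gate genes their log2 fold changes were -0.04 and 1.10.

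Between genotypes the members differed little. Over all kept T cells, 0 of 34 passed as higher in the mutant libraries and 1 as lower in edgeR's test, against 0.876% and 0.503% of all 10727 genes tested. DESeq2 called none, and 8 members had an unadjusted p under 0.05, a cutoff for which no share of all genes is given. The members' median log2 fold change, mutant minus WT, was -0.20 against 0.00 for all genes, and 29 of 34 estimates were below 0. Both mutant libraries lay below both WT libraries for 16 members, where 22.9% of all genes did, and above them for 3 (Wdr12, Wdr43, Ddx21), where 23.2% of all genes did.

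The 1 call was Bmyc, whose protein keeps Myc's activating part without its DNA-binding domain. Bmyc stood at 54.8, 35.0, 24.6 and 23.8 TMM-scaled CPM in WT 1, WT 2, mutant 1 and mutant 2. Its log2 fold change was -0.91 ± 0.20 (edgeR adjusted p = 0.0317). Over alternatives the adjusted p ran from 3.97e-05 to 0.9998, and the call was lost in DESeq2 (0.137) and without WT 1, mutant 1 or mutant 2. It was also lost at equal cluster shares (0.682), without G2 and M phase cells (0.0849) and without cluster 10 (0.0640). Cluster 4, where Bmyc is highest, held 15.8% and 8.08% of the WT cells and 1.59% and 1.67% of the mutant cells. The shallow cluster 10 moved the other way, with 0.861% and 2.69% of WT and 6.12% and 12.2% of mutant cells. Without cluster 10 the members' median was -0.205, against -0.203 with all clusters, and a cause was not tested. Without cluster 4 the estimate was -0.48 (edgeR adjusted p = 0.282) and the median of the members was -0.01.

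Myc gave 22.4, 11.2, 14.4 and 12.5 TMM-scaled CPM, the mutant libraries lying within the range of the WT libraries. Its log2 fold change of -0.35 ± 0.27 (edgeR adjusted p = 0.639) turned to 0.29 without WT 1. Npm1 gave 1087, 985, 931 and 782 TMM-scaled CPM (-0.27 ± 0.15), and Ncl gave 614, 644, 585 and 526 (-0.18 ± 0.14). Fbl gave 147, 135, 116 and 100.4 TMM-scaled CPM (-0.37 ± 0.13). In these 3 genes the mutant libraries lay lower without a pass of the test. Ddx21 lay the other way, at 193, 237, 266 and 241 TMM-scaled CPM (0.25 ± 0.14), and Nop10 overlapped, at 383, 346, 377 and 294 TMM-scaled CPM. Mutant 2, the smallest library, was the lowest of the 4 for Npm1, Ncl, Fbl and Nop10.

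**Figure D5:**
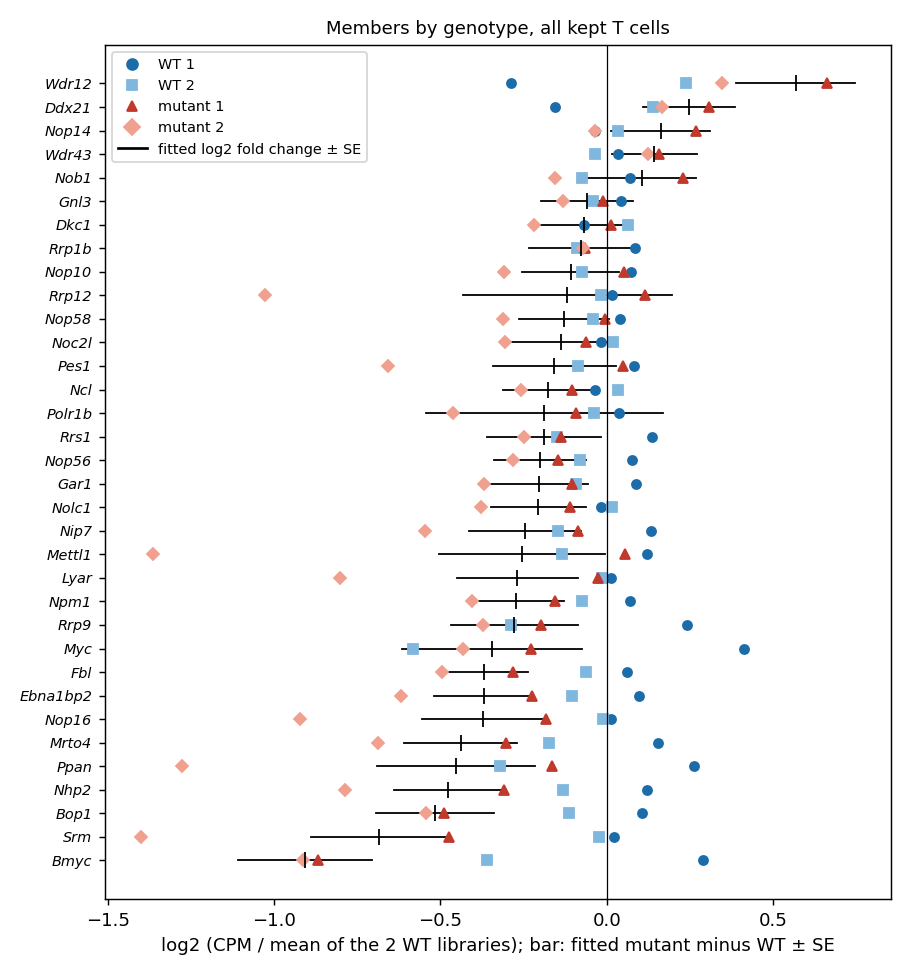
Log2 of each library's TMM-scaled CPM over the mean of the WT libraries for the 34 members. A black bar gives the fitted mutant minus WT log2 fold change ± SE. Most members sit left of 0 in mutant 2. Bmyc, at -0.91, passed the test, and the other 33 members did not.

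Within a state no member passed. In Tfh-like cells (0.263% of all genes called) the median of 33 tested members was 0.06, in cluster 0 (0.524%) -0.06, in cluster 1 (0.609%) -0.19 and in cluster 2 (0.285%) 0.08. At unadjusted p under 0.05 in edgeR's test there were 2, 4, 2 and 2 members, a cutoff for which no share of all genes is given. DESeq2 was not run within states. In Tfh-like cells the sums were 3298 and 3365 CPM in WT and 3469 and 2735 CPM in mutant libraries, so that mutant 1 was the highest of the 4 and mutant 2 the lowest. Cluster 1 made up 39.7% and 39.6% of the WT and 60.7% and 51.9% of the mutant Tfh-like cells. Without mutant 1 the Tfh-like median was -0.52, and without mutant 2 it was 0.22. In cluster 1 the median was -0.79 without mutant 1 and 0.02 without mutant 2.

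The difference of the gate effect between genotypes was tested for the pooled gate. For cells with either gate gene against neither, 0 of 34 members passed the interaction with genotype in edgeR's test (0.294% of all genes called). Their median was -0.11, and 6 had an unadjusted p under 0.05, a cutoff for which no share of all genes is given. DESeq2 was not run on the interaction. The log2 ratios of the sum with both gate genes to that with neither were 0.67 and 0.80 in WT and 0.39 and 0.34 in mutant libraries, and those of the Myc gate were also lower in both mutant libraries. These differences by genotype were not tested. Bmyc had the lowest estimate, -0.78, and did not pass (edgeR adjusted p = 0.383). The members' median was -0.48 without mutant 1, and from -0.14 to -0.005 without another library. In the genotype test over all kept T cells, 0.876% of all genes were called higher in the mutant libraries and 0.503% lower. Genes of G2 and M phase moved with genotype there, 5 of 22 being higher (Nusap1 by 2.88, Mki67 by 1.43). Of the receptor-signal genes 3 of 27 were lower, Fos at -1.64, Ccr7 at -1.002 and Nr4a1 at -0.95. The B cell marker list summed to 158, 217, 280 and 332 CPM, with 1 to 4 of its 6 genes at 0. Without G2 and M phase cells the members' median by genotype was -0.16, against -0.20 with them. The part of the other shifts in the members' values was not tested.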

How the data were processed

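The matrices hold UMI counts per gene and cell from 10x 3′ libraries, deposited by the authors. The submitters' processing notes name Cell Ranger 6.0.0, Seurat 4 and mm10. The members, lists and rules were chosen with earlier results of these data known. Barcodes with at least 500 genes and at most 10% mitochondrial UMIs were kept (3108 of 4803). Scrublet doublets (31) and an epithelial-like cluster (107 cells, 26.2% with a Cd3 UMI) were left out. Leiden clustering used resolution 0.8, 30 components and 15 neighbours, and a cluster took a name from at least 3 markers among its 50 leading genes at a fold of 2. Cells with a UMI of a gene were called positive. Counts were summed per library and class with at least 5 cells, filtered by filterByExpr, TMM-scaled and tested with edgeR 4.0.16 (quasi-likelihood, Benjamini-Hochberg 0.05). Simulated counts with planted changes and a single dispersion served as a check of the code. They do not show how the test performs at the spread of these libraries. Sums of members and single members by state are plain CPM. Single members in gates and by library over all kept T cells are TMM-scaled CPM. Named with values were Myc, Bmyc, the 5 highest members, up to 10 passing members a comparison and up to 4 genes of each list. Others were chosen after their values were seen. Alternatives used DESeq2 1.42.0, other filters, thinning and left-out libraries. Other software was Python 3.11.15, scanpy 1.11.5, leidenalg 0.10.2 and R 4.3.3. The 2 WT hashtag samples were not analysed here.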

Additional observations from a re-analysis of the deposited data

How the results depend on the processing

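Leaving out each library in turn, the members' median by genotype ran from -0.42 to -0.10 over all kept T cells. Within Tfh-like cells it ran from -0.52 to 0.22. Within cluster 1 the members' median ran from -0.79 to 0.02. With Nr4a1 only the count ran from 1 to 2, with Tnfrsf9 only from 11 to 23, in the contrast of Tnfrsf9 only with Nr4a1 only from 0 to 5, and for the interaction from 0 to 2 lower. By genotype no filter on low counts gave 1 higher and 2 lower, with 2.45% of all genes called. With DESeq2, equal cluster shares, without G2 and M phase cells, without cluster 10 and without cluster 4, 0 were lower. In those fits 0.357% to 1.12% of all genes were called. The titles' replicate numbers are not stated to pair the libraries. Deviations of same-numbered libraries from their group means correlated at 0.034 over 10727 genes, a single value that cannot decide pairing. The replicate block gave 1 higher and 3 lower, with 3.50% of all genes called. With Nr4a1 only, 2 members rose without G2 and M phase cells, 15 of 34 when Nr4a1 was gated in a fit of its own, and 1 fell with no filter. Calls over all genes were 3.32%, 6.50% and 2.07% there. With Tnfrsf9 only, 11 rose without cluster 4. Thinning to 4000 UMIs gave 4 with both and 16 with a Myc UMI. Tnfrsf9 only against Nr4a1 only gave 10 with no filter, 3 with DESeq2, 3 with the stricter cell filter, 1 at 2 UMIs and 2 without proliferating-like clusters. It gave 0 after thinning, without G2 and M phase cells or without cluster 4. In these fits 1.10% to 4.68% of all genes were called. The summed members in the cluster with the largest share of the cells of cluster 4 were 6046 CPM at resolution 0.5 and 6088 CPM with members among the variable genes, against 6729 CPM. At resolution 1.2 they were 3966 CPM in a cluster with 132 of the 270 cells and 7446 CPM in another with 131. Estimates that changed sign were Myc by genotype (-0.70 to 0.29 with a library left out, the highest without WT 1, and 0.000239 at equal shares), Nop10 by genotype (-0.33 to 0.048 with a library left out, the highest without mutant 2) and Bmyc with both (-0.081 without cluster 4). The causes were not tested.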
